A study of Mus musculus with 18 samples.

Results

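The 10 genes described here encode the core of the NF-kB system in T cells. They are the 5 subunits Rela, Relb, Rel, Nfkb1 and Nfkb2, the cytoplasmic inhibitor Nfkbia (IkBa), the ubiquitin-editing inhibitor Tnfaip3 (A20), and the nuclear IkB proteins Bcl3, Nfkbid (IkBNS) and Nfkbiz (IkBz). They were taken by gene symbol from a table of 55536 gene identifiers, all 10 were found, and all 10 were among the 15204 genes that passed the filter on low counts. RNA was sequenced from sorted CD4 T cells of C57BL/6 mice, in 6 groups of 3 libraries. Every group carried the OT-II T cell receptor transgene, and every sort took CD25-negative cells that bore Va2, the alpha chain segment of that receptor. The peripheral groups were naive cells (CD62L-positive with low CD44) from spleens and lymph nodes of Cbl-b-/-W131AOTII, W131AOTII, Cbl-b-/- OTII and OTII mice. The thymic groups were CD4 single-positive thymocytes of W131AOTII and OTII mice. W131A is a substitution in ZAP-70, the kinase just below the T cell receptor, and the series presents W131AOTII mice as an inherited form of anergy, a state in which T cells respond poorly to antigen. Cbl-b is a ubiquitin ligase that restrains T cell receptor signals, and the question put to the Cbl-b-/- mice was which pathways it controls in anergic cells. The labels give 12 W131AOTII mice at 4 per group, 6 Cbl-b-/-W131AOTII mice at 2 per group, and 3 mice each for the Cbl-b-/- and OTII genotypes, but not which animals entered which library, and the p-values therefore cover only library-to-library spread, which may be technical. The labels state neither the ages of the mice nor whether the loss of Cbl-b was limited to a cell type.

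NF-kB proteins act as dimers. In resting cells IkBa and the uncleaved products of Nfkb1 and Nfkb2 hold the dimers in the cytoplasm. T cell receptor and CD28 signals reach them through the IkB kinases, which release dimers of RelA and c-Rel with p50. TNF receptor family members such as OX40 and 4-1BB can also use the slower route, in which the kinase NIK (Map3k14) starts the cleavage of the Nfkb2 product to p52, the partner of RelB. Bcl3, Nfkbid and Nfkbiz encode nuclear IkB proteins that bind p50 or p52 on DNA and can raise or lower transcription, while A20 and IkBa are made in response to NF-kB and shut it down.

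Total counts ran from 19708218 to 36218772 per library, and the members were deeply covered, with at least 410 counts for Rel, the least counted member, in every library. In the check of the labels, Cblb averaged 93.6 ± 15.1 CPM in Cbl-b-/-W131AOTII and 69.5 ± 19.8 in Cbl-b-/- OTII cells, against 159 ± 15.9 in W131AOTII and 129 ± 10.7 in OTII cells, and 126 ± 14.3 in thymic W131AOTII and 90.8 ± 10.6 in thymic OTII cells (SD, n = 3 each; CPM are counts scaled to the TMM-adjusted library size). The counts cover the whole gene, so they do not test the deleted part. The summed level of 8 CD4 T cell markers, led by Trac and Lck, was 14187 to 25608 CPM in the peripheral and 17973 to 26129 CPM in the thymic libraries, and no member of that list was at 0 in any library. There were 3 libraries that stood apart, namely W131AOTII replicate 2, with 5131 CPM of 10 summed B cell markers (led by Ighm and Cd74), against 1640 to 2558 CPM in the other peripheral libraries, Cbl-b-/- OTII replicate 2, and thymic OTII replicate 3, with 1715 CPM of summed heat shock and immediate early genes. Each result that rests on them was computed without them as well.

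Per base of transcript, Nfkbia and Rela were the most abundant of the 10, and Rel, Nfkb1 and Nfkbiz the least. In RPKM (CPM per kilobase of exon), Nfkbia group means ran from 159 to 209 and those of Rela from 75.1 to 130.6. Bcl3 came next in W131AOTII cells, at 84.0 ± 21.6 RPKM, and was at 18.8 ± 4.46 RPKM in thymic W131AOTII cells (SD, n = 3 each), the widest span of group means among the 10, 4.48-fold. The group means of Relb ran from 19.3 to 31.3 RPKM, those of Nfkb2 from 19.6 to 29.8 and those of Nfkbid from 21.2 to 33.6. Tnfaip3 spanned 11.6 to 14.2 RPKM and Nfkbiz 5.37 to 12.1. Rel, which encodes c-Rel, a main NF-kB protein of activated T cells, had group means of only 4.06 to 5.96 RPKM, and Nfkb1, the p105 and p50 gene, 5.71 to 8.40. Nfkb1 holds an uncharacterised transcript, Gm43430, on its own strand (27 to 251 counts), and Nfkb2 overlaps the lncRNA AC114539.1 on the other strand (332 to 715 counts). Bcl3 has 2 antisense neighbours with at most 42 counts. Reads in these overlaps cannot be assigned, since no source used here gives the strand setting of the counting.

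**Figure D1:**
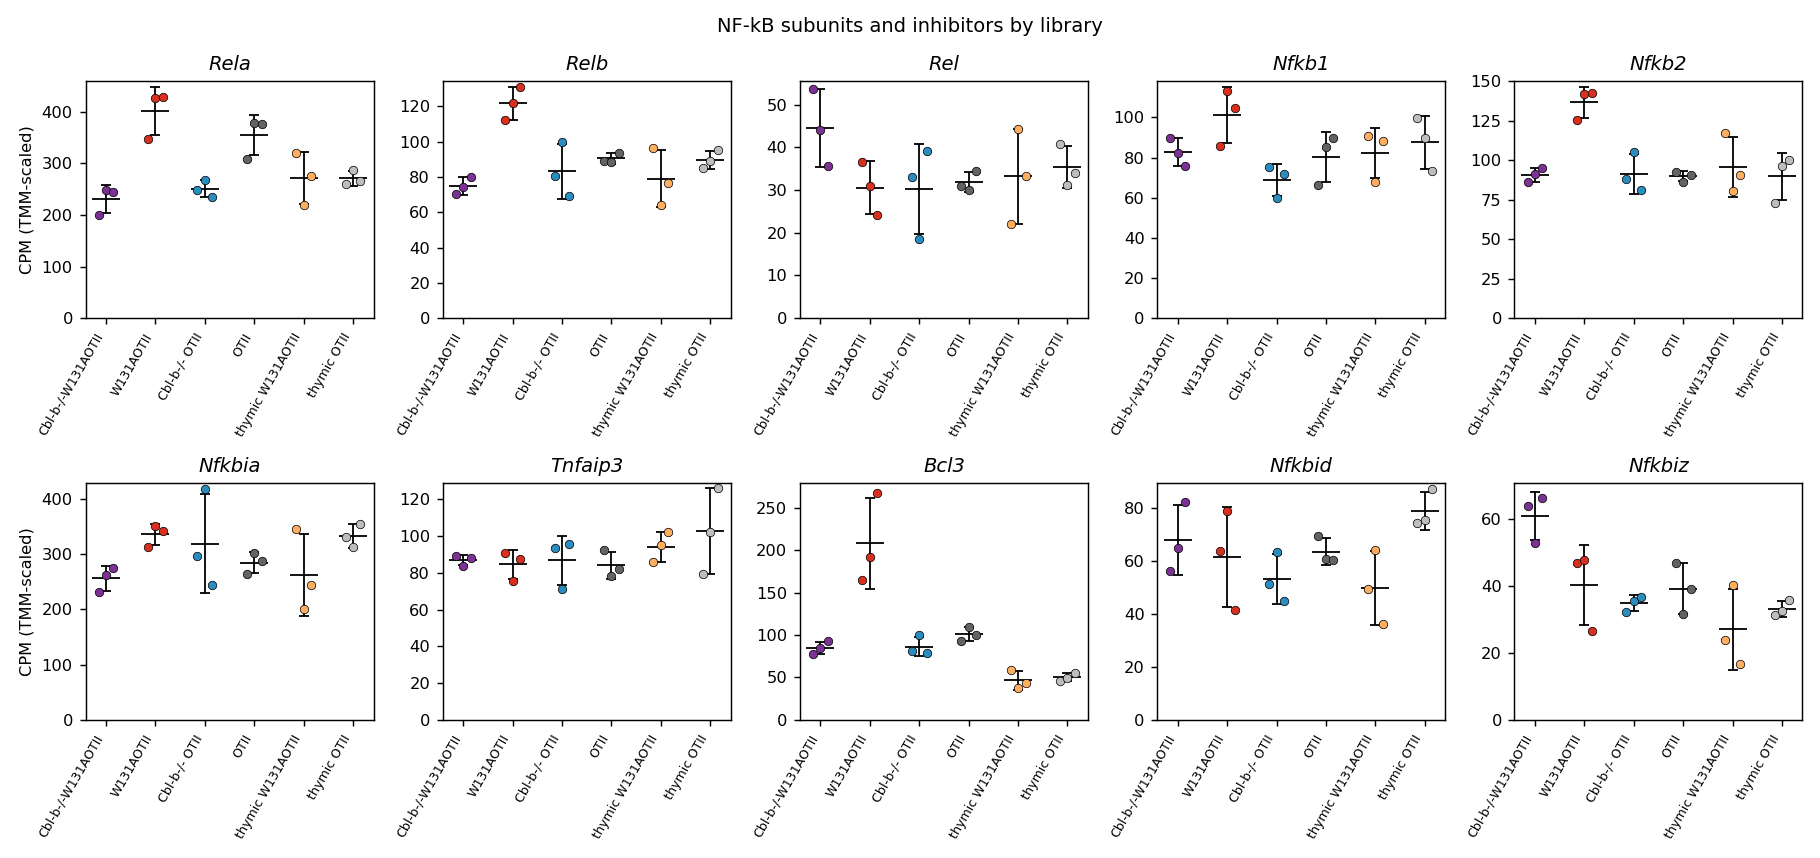
CPM on TMM-scaled library sizes (vertical axis, from 0) of the 10 members in each library, in 1 panel per gene; points are libraries, the horizontal bar and whiskers are the mean and SD of the 3 libraries of a group. The W131AOTII libraries lie above every other library for Bcl3 (165 to 268 CPM) and Nfkb2 (125 to 143 CPM), while the group means of Tnfaip3 lie between 84.2 and 103 CPM.

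The promoters of the members on which the results turn are shown because NF-kB genes are known targets of NF-kB. They are RefSeq promoters on GRCm38.p6, from 250 bases before a transcript start to 50 bases after it, 5′ to 3′ on the gene's strand, with matches to the degenerate 10-base kB consensus on either strand in capitals:
Bcl3, chr7:19822706-19823005, minus strand: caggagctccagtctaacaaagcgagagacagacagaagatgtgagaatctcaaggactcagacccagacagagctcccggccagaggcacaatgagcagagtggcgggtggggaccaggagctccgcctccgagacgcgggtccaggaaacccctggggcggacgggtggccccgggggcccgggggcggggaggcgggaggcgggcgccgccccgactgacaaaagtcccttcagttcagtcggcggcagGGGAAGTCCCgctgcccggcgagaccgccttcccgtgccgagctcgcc
Nfkb2, chr19:46304487-46304786, plus strand: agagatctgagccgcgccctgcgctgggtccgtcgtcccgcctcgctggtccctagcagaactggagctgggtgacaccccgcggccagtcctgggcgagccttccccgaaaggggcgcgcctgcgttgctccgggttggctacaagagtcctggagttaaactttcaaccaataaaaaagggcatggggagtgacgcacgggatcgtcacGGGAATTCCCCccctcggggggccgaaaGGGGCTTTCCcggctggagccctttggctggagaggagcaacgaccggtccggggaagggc
Rela, chr19:5637291-5637590, plus strand: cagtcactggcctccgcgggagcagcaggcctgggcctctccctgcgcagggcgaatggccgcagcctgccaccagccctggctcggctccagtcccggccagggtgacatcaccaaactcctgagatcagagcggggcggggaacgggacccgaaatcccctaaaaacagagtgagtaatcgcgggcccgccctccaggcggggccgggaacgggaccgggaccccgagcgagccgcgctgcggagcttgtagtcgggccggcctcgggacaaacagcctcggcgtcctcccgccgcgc
Nfkbia, chr12:55492598-55492897, minus strand: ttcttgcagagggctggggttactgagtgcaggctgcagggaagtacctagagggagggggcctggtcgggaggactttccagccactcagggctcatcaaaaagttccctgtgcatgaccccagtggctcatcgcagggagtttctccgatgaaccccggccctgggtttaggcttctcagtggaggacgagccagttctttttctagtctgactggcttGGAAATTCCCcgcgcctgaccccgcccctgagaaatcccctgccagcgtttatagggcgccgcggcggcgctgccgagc
Rel, chr11:23770920-23771219, minus strand: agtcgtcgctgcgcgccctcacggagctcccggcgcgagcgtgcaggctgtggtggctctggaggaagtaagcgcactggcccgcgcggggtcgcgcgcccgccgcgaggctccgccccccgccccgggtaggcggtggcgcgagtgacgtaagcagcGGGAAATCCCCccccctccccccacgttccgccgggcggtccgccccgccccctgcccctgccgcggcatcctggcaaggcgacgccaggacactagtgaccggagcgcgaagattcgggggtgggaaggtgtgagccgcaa
Bcl3 passed the test in 5 comparisons and Nfkb2 in 3 of those, and both hold matches. Rela passed in 4 comparisons and holds none, while Nfkbia and Rel hold matches and passed in no comparison. With positions counted from the start base as 0, the Bcl3 match GGGAAGTCCC lies at 2 to 11, just inside the transcript. Nfkb2 start 1 holds the palindrome GGGAATTCCC at -39 to -30, which overlaps a second match shifted by 1 base, and GGGGCTTTCC at -11 to -2. The 2 other annotated Nfkb2 starts hold matches as well, of which GGGACTTTCC lies in the windows of both. The Nfkbia match GGAAATTCCC lies at -29 to -20 on the other strand, and the Rel match GGGAAATCCC at -92 to -83. Of 7 members with a promoter entry, 6 held a match at 1 or more of their 12 start sites, and 8 of the 12 windows held one. Over all RefSeq promoters of that length the share was 8.46% (2779 of 32851). Counted by gene, with a match at 1 or more starts, it was 9.55% (2581 of 27025). A match describes the letters of this window and says nothing of binding. Relb, Nfkb1 and Nfkbiz had no entry.

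**Figure D2:**
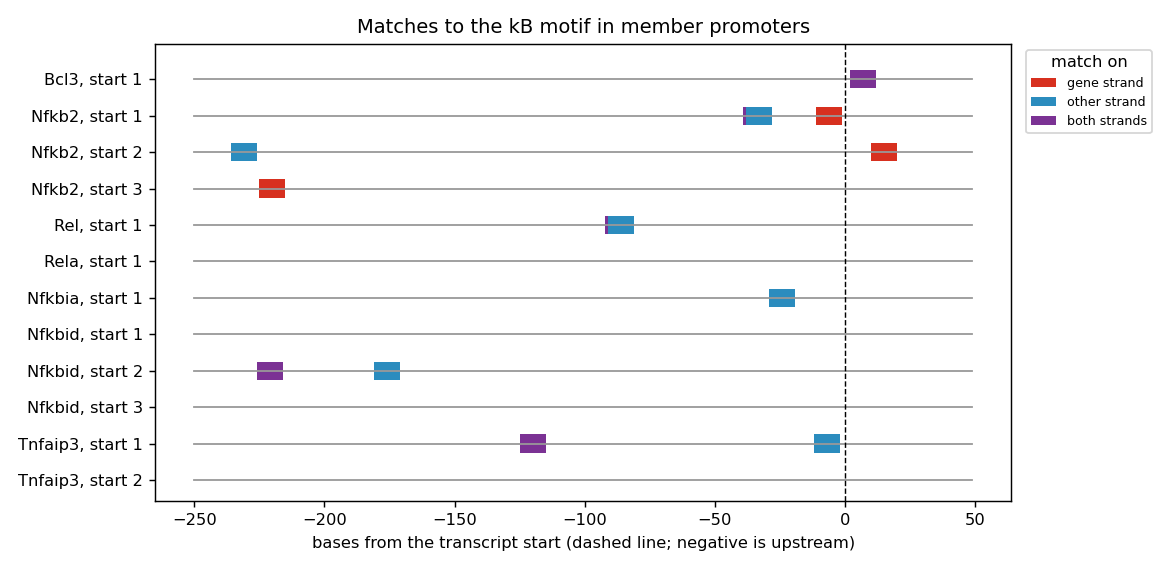
Positions of matches to the kB consensus (boxes) in the 300-base RefSeq promoter windows of 7 members, by distance in bases from the transcript start (horizontal axis); each line is 1 annotated start, and colour gives the strand of the match. The match nearest the start lies close to it for Bcl3, Nfkb2 starts 1 and 2, Nfkbia and Tnfaip3 start 1, and Rela holds none.

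The ZAP-70 substitution went with more Bcl3 and Nfkb2 in the periphery: both rose in W131AOTII relative to OTII cells, and the other 8 members did not pass the test. Bcl3 was 2.06-fold and Nfkb2 1.52-fold higher. The 2 of 10 members called higher stand beside 1.68% of all genes tested (0.25% were called lower, and 0 members), and the members' median log2 fold change was 0.21 against 0.00 for all genes. The classical dimer genes, RelA, c-Rel and p50, and the inhibitor genes Nfkbia and Tnfaip3 gave smaller differences.

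Bcl3, which encodes a p50 and p52 partner first known as an oncogene of B cell leukaemia, had 165, 191 and 268 CPM in the W131AOTII libraries, against 93.4, 109 and 99.7 CPM in the OTII libraries. The 2 groups did not overlap, and the lowest W131AOTII library stood well above the highest OTII library. The log2 fold change was 1.04 (SE 0.18, edgeR quasi-likelihood adjusted p = 0.00181). Nfkb2, the p100 and p52 gene, had 125, 142 and 143 CPM in W131AOTII against 92.3, 86.1 and 90.8 CPM in OTII libraries, again without overlap (log2 fold change 0.60, SE 0.15, edgeR adjusted p = 0.0346). Its call was lost without W131AOTII replicate 2 (adjusted p = 0.11) or 3 (0.0924), without OTII replicate 1 (0.0808), 2 (0.143) or 3 (0.113), and without the libraries that stood apart (0.0899), at log2 fold changes of 0.57 to 0.64. Relb, whose protein pairs with p52, had 112, 122 and 130.6 CPM in W131AOTII against 88.9, 88.6 and 93.8 CPM in OTII libraries. These groups did not overlap either, but the difference missed the threshold (log2 fold change 0.43, SE 0.15, edgeR adjusted p = 0.204). Relb passed by limma voom (adjusted p = 0.0135), with offsets for GC content and length (0.045) and in a fit of only these 2 groups (0.0193), which called 4.22%, 2.55% and 3.74% of all genes. Rela overlapped between the groups, at 348, 428 and 428 CPM in W131AOTII against 309.6, 379 and 377 CPM in OTII libraries, with a log2 fold change of 0.18 (SE 0.14). The remaining 6 members had log2 fold changes between -0.06 (Rel) and 0.33 (Nfkb1).

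When Cbl-b was also missing, in Cbl-b-/-W131AOTII relative to W131AOTII cells, Bcl3, Rela, Relb and Nfkb2 fell. Bcl3 was 2.45-fold, Rela 1.74-fold, Relb 1.63-fold and Nfkb2 1.505-fold higher in W131AOTII cells. No member rose in this fit. The 4 of 10 members called lower stand beside 6.08% of all genes tested (3.18% were called higher), and the members' median log2 fold change was -0.34 against 0.03 for all genes. Of the proteins of the lower members, RelB pairs with p52, Bcl3 binds p50 or p52, RelA pairs with p50, and Nfkb2 encodes p52 itself. The p50 gene Nfkb1 gave -0.29 (SE 0.16). This comparison shares its W131AOTII libraries with the one above, so the falls of Bcl3 and Nfkb2 here and their rises there rest in part on the same 3 libraries.

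Bcl3 had 77.8, 84.2 and 92.5 CPM in the Cbl-b-/-W131AOTII libraries, against 165, 191 and 268 CPM in the W131AOTII libraries. All 3 Cbl-b-/-W131AOTII libraries also lay under the lowest OTII library (93.4 CPM), although that difference from OTII missed the threshold (log2 fold change -0.25, SE 0.18, edgeR adjusted p = 0.406). Relative to W131AOTII cells Bcl3 had a log2 fold change of -1.29 (SE 0.18, edgeR adjusted p = 0.000382). Rela, the p65 gene, had 199, 248 and 245 CPM in Cbl-b-/-W131AOTII against 348, 428 and 428 CPM in W131AOTII libraries, with a wide gap between the groups (log2 fold change -0.80, SE 0.14, edgeR adjusted p = 0.00415). Relb had 70.0, 74.4 and 80.0 CPM in Cbl-b-/-W131AOTII against 112, 122 and 130.6 CPM in W131AOTII libraries (log2 fold change -0.70, SE 0.15, edgeR adjusted p = 0.0102). Nfkb2 had 85.9, 91.2 and 95.0 CPM in Cbl-b-/-W131AOTII against 125, 142 and 143 CPM in W131AOTII libraries (log2 fold change -0.59, SE 0.15, edgeR adjusted p = 0.0226). Neither gene overlapped between the groups. Without Cbl-b-/-W131AOTII replicate 1 the calls of Relb (adjusted p = 0.0598) and Nfkb2 (0.0957) were lost, and the Nfkb2 call was also lost without W131AOTII replicate 2 (0.0732) or 3 (0.0808) or without the libraries that stood apart (0.0679). Across genes, fold changes of this comparison fell with GC content (Spearman -0.40 over 15198 genes). The longest transcripts of Bcl3, Rela, Nfkb2 and Relb had a GC content of 62.6%, 59.4%, 59.4% and 56.8%. With an offset for GC content and length the log2 fold changes were -1.05 for Bcl3, -0.55 for Rela, -0.45 for Relb and -0.26 for Nfkb2, and only the Nfkb2 call was lost (adjusted p = 0.0672).

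None of the other inhibitor and nuclear IkB genes passed the edgeR test of all libraries with Bcl3. Nfkbiz, whose IkBz protein is best known for its induction by Toll-like and IL-1 receptors, had 63.8, 52.7 and 66.2 CPM in Cbl-b-/-W131AOTII against 46.8, 47.6 and 26.4 CPM in W131AOTII libraries. The groups did not overlap and the order was opposite to that of Bcl3, but the difference missed the threshold (log2 fold change 0.60, SE 0.25, edgeR adjusted p = 0.128). Nfkbia had 232, 262 and 276 CPM in Cbl-b-/-W131AOTII against 314, 352 and 342 CPM in W131AOTII libraries, without overlap (log2 fold change -0.39, SE 0.18, edgeR adjusted p = 0.171). Rel had 53.8, 44.2 and 35.6 CPM in Cbl-b-/-W131AOTII against 36.6, 30.9 and 24.2 CPM in W131AOTII libraries, with overlap (log2 fold change 0.54, SE 0.25, edgeR adjusted p = 0.171). Rel was called higher with no filter (adjusted p = 0.0458), by limma voom (0.036) and in a fit of only these 2 groups (0.0393), and Nfkbiz with no filter (0.0182). Nfkbia was called lower by limma voom (0.0233) and in the fit of only these 2 groups (0.0139). The 3 fits called 7.53%, 23.1% and 23.6% of all genes. Nfkbid, which encodes a nuclear IkB needed for full Foxp3 induction in mice, and Tnfaip3 gave 0.14 (SE 0.22) and 0.04 (SE 0.15). The longest transcripts of Rel and Nfkbiz, the members with the largest rises here, had a GC content of 42.5% and 50.1%. Nfkbid, at 57.1%, nevertheless had a value above 0, and Nfkb1, at 44.9%, a value below 0. Neither Rel nor Nfkbiz passed in the fit adjusted for GC and length. Whether the opposite order of Nfkbiz and Bcl3 follows GC content was not tested.

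**Figure D3:**
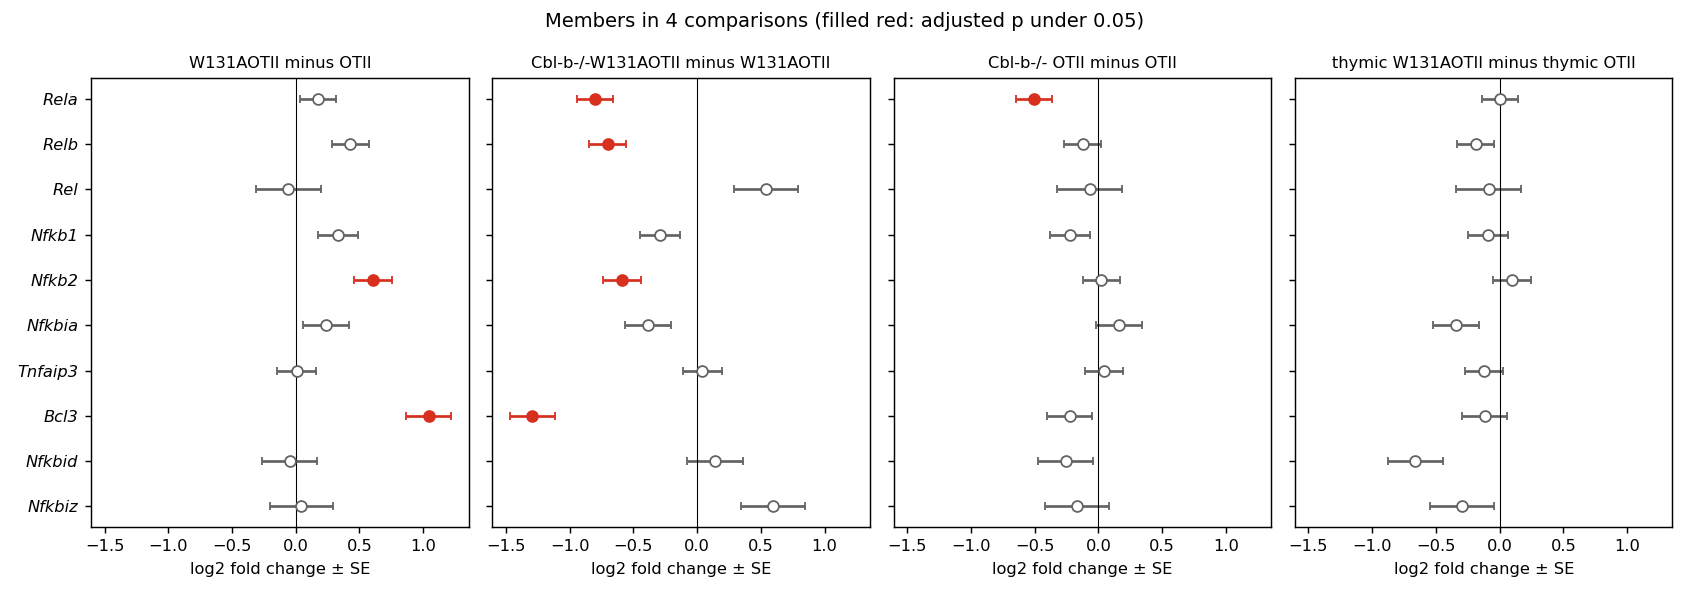
Log2 fold change (horizontal axis) with its SE for the 10 members in 4 comparisons, from 1 edgeR fit of all libraries; filled red points passed an adjusted p of 0.05. Bcl3 stands at 1.04 in W131AOTII minus OTII and at -1.29 in Cbl-b-/-W131AOTII minus W131AOTII cells, and no member passed in the thymus.

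Loss of Cbl-b without W131A went with less Rela: it fell in Cbl-b-/- OTII relative to OTII cells, and no other member passed. The OTII libraries here are those set against W131AOTII cells above. Rela had 249, 268 and 235 CPM in Cbl-b-/- OTII against 309.6, 379 and 377 CPM in OTII libraries, and the groups did not overlap. The log2 fold change was -0.50 (SE 0.14, edgeR adjusted p = 0.0344). This 1 of 10 members stands beside 2.99% of genes called lower (5.22% were called higher). Bcl3 had 80.8, 99.4 and 78.8 CPM in Cbl-b-/- OTII against 93.4, 109 and 99.7 CPM in OTII libraries, with overlap (log2 fold change -0.22, SE 0.18). The Rela call was lost without Cbl-b-/- OTII replicate 1 (adjusted p = 0.0728), 2 (0.059) or 3 (0.0581), without OTII replicate 2 (0.112) or 3 (0.143), and without the libraries that stood apart (0.0957), at log2 fold changes of -0.56 to -0.48. Across genes, fold changes here also fell with GC content (Spearman -0.27). With offsets for GC content and length Rela gave -0.35 (edgeR adjusted p = 0.041). In the same comparison 7 of 9 effector or memory markers rose, with sums of 168 to 221 CPM in Cbl-b-/- OTII and 116 to 144 CPM in OTII libraries, and 4 of 8 regulatory T cell markers rose, with sums of 364 to 574 CPM in Cbl-b-/- OTII and 264 to 278 CPM in OTII libraries. None of the 10 B cell markers passed. Their part in the fall of Rela was not tested.

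Whether loss of Cbl-b acted differently with and without W131A was tested by the interaction of the 2 genotypes. No member passed in the main edgeR fit (all libraries, filtered, without offsets), beside 0.0395% of all genes called higher and 0.592% called lower. Bcl3 came closest, with a log2 interaction of -1.07 (SE 0.25, edgeR adjusted p = 0.055), followed by Nfkb2 (-0.61, SE 0.21, adjusted p = 0.252) and Relb (-0.58, SE 0.21, adjusted p = 0.281). Rela fell with loss of Cbl-b in both backgrounds, and its interaction was -0.30 (SE 0.20, adjusted p = 0.557). At an unadjusted p under 0.05 5 members were counted in the interaction, beside 12.3% of all genes. DESeq2 called 1 member lower beside 1.54% of all genes, and limma voom called 3 beside 4.56%. Bcl3 passed in edgeR without W131AOTII replicate 1 (adjusted p = 0.0194) or Cbl-b-/- OTII replicate 3 (0.039). It also passed in edgeR with no filter (0.00027), with GC and length offsets (0.018) and in only the groups compared (0.0299). Those fits called 2.79%, 0.98% and 0.795% of all genes, and Nfkb2 passed with the offsets (0.0347). Without the libraries that stood apart Bcl3 missed the threshold (0.205).

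With Cbl-b absent from both groups, Cbl-b-/-W131AOTII against Cbl-b-/- OTII cells, the main edgeR fit called no member, beside 0.802% of genes higher and 1.09% lower. The log2 fold changes were -0.02 for Bcl3, -0.01 for Nfkb2, -0.12 for Rela and -0.15 for Relb (SE 0.14 to 0.18). At an unadjusted p under 0.05 the count was 2, beside 17.1% of all genes. DESeq2 and limma voom each called 1, Nfkbiz, beside 4.47% and 17.9% of all genes. Nfkbiz had 63.8, 52.7 and 66.2 CPM in Cbl-b-/-W131AOTII against 32.1, 35.5 and 36.7 CPM in Cbl-b-/- OTII libraries, with a clear gap (log2 fold change 0.81, SE 0.25, edgeR adjusted p = 0.108, DESeq2 adjusted p = 0.04). Over all 6 groups the 3 Cbl-b-/-W131AOTII libraries were the highest for Nfkbiz, and their mean of 60.9 ± 7.19 CPM stood apart from the next group mean of 40.3 ± 12.0 CPM in W131AOTII cells (SD, n = 3 each). Against OTII cells, Cbl-b-/-W131AOTII cells had less Rela (log2 fold change -0.62, SE 0.14, edgeR adjusted p = 0.0116), beside 3.52% of genes called lower and 3.87% higher. Without Cbl-b-/-W131AOTII replicate 1 (adjusted p = 0.0735) or OTII replicate 2 (0.0716) or 3 (0.0729) that call was lost. Fold changes against OTII cells also fell with GC content across genes (Spearman -0.31). Nfkbiz gave 0.64 there (SE 0.25, edgeR adjusted p = 0.121).

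In the thymus, no member passed the main edgeR test between W131AOTII and OTII cells, beside 1.73% of genes called higher and 1.04% lower. The count at an unadjusted p under 0.05 was 1, beside 16.4% of all genes. DESeq2 called 0 members beside 5.19% of all genes, and limma voom 2 (Nfkbid and Nfkbia, both lower) beside 14.6%. Bcl3 had 58.5, 37.0 and 43.7 CPM in thymic W131AOTII against 45.8, 49.7 and 55.4 CPM in thymic OTII libraries, the lowest levels of Bcl3 in the series, and the groups overlapped. Nfkbid had 49.2, 63.9 and 36.2 CPM in thymic W131AOTII against 74.2, 75.4 and 86.9 CPM in thymic OTII libraries, without overlap (log2 fold change -0.66, SE 0.22, edgeR adjusted p = 0.122). Without thymic W131AOTII replicate 2 its adjusted p was 0.0339. The W131A effect on Bcl3 in the periphery exceeded that in the thymus by a log2 difference of 1.16 (SE 0.25, edgeR adjusted p = 0.0478), the 1 member called in that difference beside 0.296% of genes called higher and 0.0855% lower. All 10 members had a difference above 0, at a median of 0.47 against -0.01 for all genes, and the 2 effects share no library. Across genes this difference rose with GC content (Spearman 0.22 over 15198 genes). With offsets for GC content and length it was 0.94 for Bcl3 (edgeR adjusted p = 0.0234), 0.55 for Relb and 0.43 for Nfkb2. For Rela it was 0.004 with the offsets and 0.17 without them. The Bcl3 difference missed the threshold without the libraries that stood apart (adjusted p = 0.117) and in 10 of the 12 fits that left out 1 library, at 0.0535 to 0.131; it passed without replicate 1 of W131AOTII (0.0194) or of thymic W131AOTII cells (0.00761).

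Between periphery and thymus, Bcl3 rose in both genotypes. It was 2.00-fold higher in peripheral OTII than in thymic OTII cells (log2 fold change 1.003, SE 0.18, edgeR adjusted p = 0.00044), the 1 member called beside 7.75% of genes higher and 10.6% lower. Rela gave 0.39 there (SE 0.14, edgeR adjusted p = 0.0592) without overlap between the groups, and 0.47 without OTII replicate 1 (0.0424). In W131AOTII cells Bcl3 was 4.48-fold higher in the periphery (log2 fold change 2.16, SE 0.18, edgeR adjusted p = 1.03e-07). Relb (0.63, SE 0.15, adjusted p = 0.00424), Rela (0.56, SE 0.14, adjusted p = 0.00706) and Nfkb2 (0.51, SE 0.15, adjusted p = 0.0181) rose with it, again by edgeR. These 4 of 10 stand beside 8.07% of genes called higher and 11.2% lower. The Nfkb2 call was lost without W131AOTII replicate 3 (adjusted p = 0.0539) or thymic W131AOTII replicate 2 (0.0707), and in those same fits Nfkbiz passed (0.0289 and 0.00407). Nfkbia passed without thymic W131AOTII replicate 1 (0.0204). Of 10 B cell markers, 8 rose and 1 fell in OTII cells (sums of 2203 to 2558 CPM in peripheral and 719 to 1013 CPM in thymic libraries), and 9 rose in W131AOTII cells (2287 to 5131 CPM in peripheral and 665 to 1030 CPM in thymic libraries). Of 11 tested heat shock and immediate early genes, 4 fell in OTII cells (688 to 720 CPM in peripheral and 1065 to 1715 CPM in thymic libraries), and 2 rose and 3 fell in W131AOTII cells. Of 6 immature thymocyte markers, 4 fell in OTII and 5 in W131AOTII cells. Their part in these differences was not tested. Peripheral and thymic cells also differ in sort and in tissue, which cannot be told apart from maturation here.

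Over the 6 groups, the order of the group means was led by W131AOTII for Bcl3, Nfkb2, Relb, Rela, Nfkb1 and Nfkbia. For Bcl3, Nfkb2 and Relb no library of the next group reached the lowest W131AOTII library; the next means were 101 ± 8.03 CPM in OTII for Bcl3, 95.9 ± 19.0 CPM in thymic W131AOTII for Nfkb2 and 90.4 ± 2.91 CPM in OTII for Relb (SD, n = 3 each). For Bcl3 a second gap lay between Cbl-b-/-W131AOTII (84.8 ± 7.35 CPM) and thymic OTII cells (50.3 ± 4.82 CPM), and all its other neighbours overlapped. For Rela, Nfkb1 and Nfkbia every pair of neighbours overlapped. Cbl-b-/-W131AOTII cells led for Rel and Nfkbiz, and thymic OTII cells for Nfkbid and Tnfaip3. Tnfaip3, the A20 gene, varied least, with group means of 84.2 to 103 CPM that all overlapped their neighbours. Among the members, the root mean square difference between centred log2 CPM over the 18 libraries was smallest for Relb and Nfkb2 (0.14). It was largest for Rel and Bcl3 (0.91). The measure grows with the spread of each gene, so this order does not rank the pairs by likeness of pattern.

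Of genes outside the members, the protein-coding ones nearest in pattern by that measure were Tmco4 (0.088) and Ppm1g (0.094) for Rela, Pus1 (0.11) and Gpatch3 (0.12) for Relb, and Gtf2f1 (0.11) and Pus1 (0.13) for Nfkb2. For Bcl3 they were B3gnt3 and Tagln2, at 0.29 each. The size of this measure depends on a gene's own root mean square spread. That spread was 0.74 for Bcl3, 0.31 for Rela, 0.27 for Relb and 0.26 for Nfkb2, so the distances are not compared between members.

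The other genes of the pathway were read, by the same edgeR test, in 3 lists, 22 signalling genes upstream, 17 further inhibitors and 32 known targets. In W131AOTII against OTII cells none of the 22 upstream genes and none of the 17 inhibitors passed, in either direction. Of 31 tested targets 6 rose and none fell. These counts stand beside 1.68% of all genes called higher and 0.25% called lower. The risen targets were Il2ra (log2 fold change 1.57, SE 0.16), the gene of CD25, on whose absence the cells were sorted, the TNF receptor genes Tnfrsf4 (OX40; 2.13, SE 0.24) and Tnfrsf9 (4-1BB; 1.67, SE 0.20), the transcription factor gene Irf4 (1.12, SE 0.22), and 2 more. The targets' median was 0.48, against 0.00 for all genes, but targets near the floor entered it. Among them, Il2 averaged 0.386 CPM in W131AOTII and 0.0798 CPM in OTII cells, and Ccl3 0.0711 and 0.0234 CPM. In Cbl-b-/-W131AOTII against W131AOTII cells, 4 targets fell and 1 rose, beside 6.08% of all genes called lower and 3.18% called higher. Cxcl10, a chemokine gene at 0.764 ± 0.243 CPM in Cbl-b-/-W131AOTII and 4.02 ± 1.89 CPM in W131AOTII cells (SD, n = 3 each), fell by 2.40 (SE 0.39), and the cyclin gene Ccnd2 (-0.70, SE 0.15) and Irf4 (-0.76, SE 0.22) fell as well. The chemokine gene Ccl4 rose by 2.62 (SE 0.69), at low levels of 2.21 ± 1.61 CPM in Cbl-b-/-W131AOTII and 0.355 ± 0.115 CPM in W131AOTII cells. Tnfrsf4 (0.42, SE 0.22), Tnfrsf9 (0.52, SE 0.19) and Il2ra (0.20, SE 0.16), which rose with W131A, did not pass there. Upstream, Rnf31 (-0.52, SE 0.13), the catalytic subunit of the linear ubiquitin ligase, fell. Of the inhibitors, Nfkbil1 (-0.96, SE 0.28) fell and Rnf11 (0.61, SE 0.19), a partner of A20, rose.

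Set against OTII cells, Cbl-b-/- OTII cells had 5 of 31 targets higher, led by Tnfrsf4 (1.97, SE 0.23) and Tnfrsf9 (1.64, SE 0.20), beside 5.22% of all genes. Of 22 upstream genes 2 fell, among them Ikbkb (-0.43, SE 0.13), an IkB kinase, as did 1 of 17 inhibitors, the deubiquitinase gene Otulin (-0.42, SE 0.11), beside 2.99% of all genes. In Cbl-b-/-W131AOTII against OTII cells 1 of 22 upstream genes fell, and 5 of 31 targets rose and 1 fell, beside 3.87% of all genes higher and 3.52% lower. Between the Cbl-b-/- groups, Il2ra rose with W131A (1.25, SE 0.16), and Irf1 (-0.56, SE 0.11) and Cxcl10 (-1.60, SE 0.39) fell. The interaction was below 0 for Cxcl10 (-2.96, SE 0.54), Tnfrsf4 (-1.55, SE 0.32) and the adhesion molecule gene Icam1 (-0.98, SE 0.21). In the thymus W131A went with higher Traf5 (0.66, SE 0.14) and Ripk1 (0.52, SE 0.13) upstream, and with 3 higher and 2 lower of 31 targets, among them Il2ra (1.36, SE 0.16) and Irf4 (-1.24, SE 0.21), beside 1.73% of all genes higher and 1.04% lower. The W131A effect on Irf4 was above 0 in the periphery and below 0 in the thymus, a difference of 2.36 (SE 0.31). The effect on Tnfrsf4 was larger in the periphery than in the thymus by 2.46 (SE 0.32). Against the thymus, peripheral OTII cells had 4 of 22 upstream genes higher, led by Traf5 (1.77, SE 0.15), 2 of 17 inhibitors lower, and 6 of 31 targets higher and 9 lower, led by Irf4 (-2.98, SE 0.23), beside 7.75% of all genes higher and 10.6% lower. Peripheral W131AOTII cells had 6 of 22 upstream genes higher, again led by Traf5 (1.18, SE 0.14), and 1 lower, with 1 of 17 inhibitors, Nfkbie (0.49, SE 0.13), higher, and 10 of 31 targets higher and 3 lower, beside 8.07% of all genes higher and 11.2% lower.

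**Figure D4:**
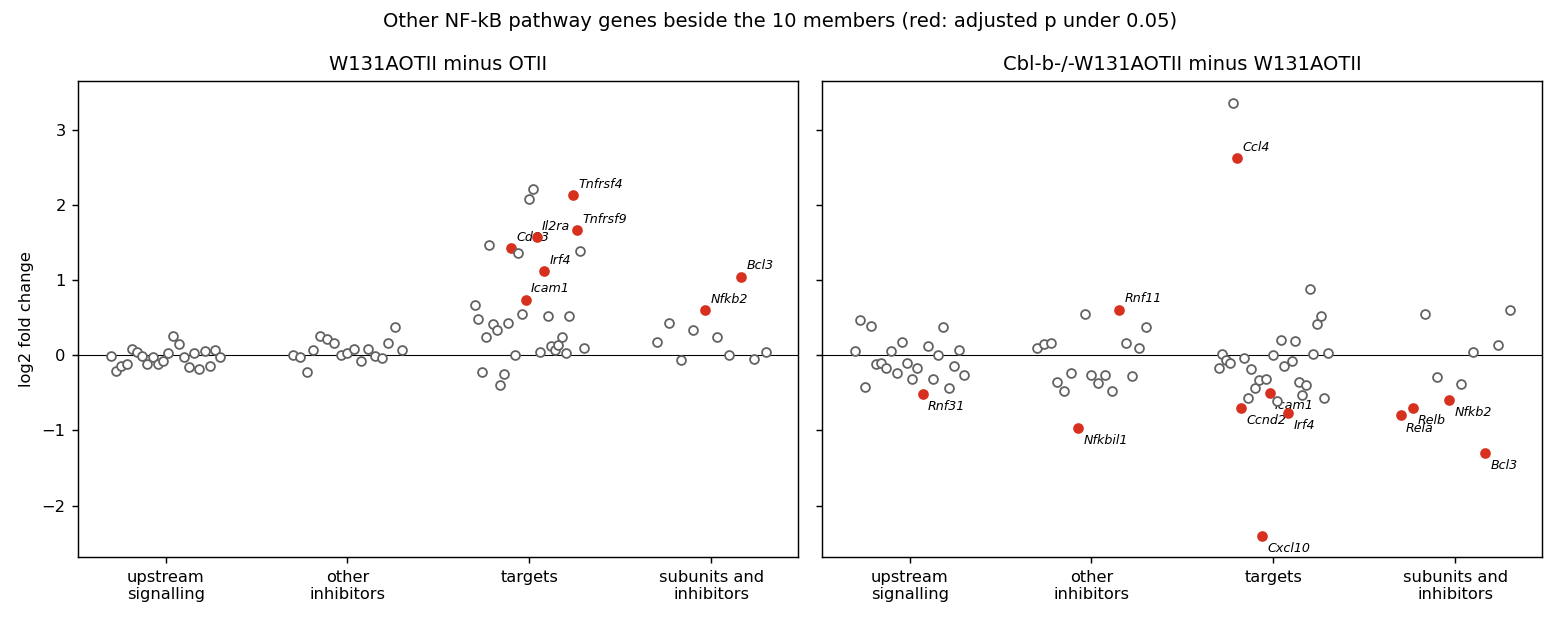
Log2 fold change (vertical axis) of each tested gene of the 3 pathway lists and of the 10 members in W131AOTII minus OTII (left) and Cbl-b-/-W131AOTII minus W131AOTII cells (right), 1 point per gene; filled red points passed an edgeR adjusted p of 0.05 and are named. In W131AOTII minus OTII cells the named points are 6 targets with Bcl3 and Nfkb2, and none upstream, where 1.68% of all genes were called higher.

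Markers of other cells moved with some of these groups. The summed level of 8 regulatory T cell markers, led by Izumo1r and Tnfrsf18, was 641 to 748 CPM in W131AOTII and 264 to 278 CPM in OTII libraries. Of the 8, 6 rose, beside 1.68% of all genes called higher. The sum was 620.4 to 711 CPM in Cbl-b-/-W131AOTII libraries, where Bcl3 was at 77.8 to 92.5 CPM. There too 6 of the 8 markers were higher than in OTII cells, beside 3.87% of all genes. The 9 effector or memory markers, led by Il2rb and Id2, summed to 300 to 350 CPM in Cbl-b-/-W131AOTII, 301 to 435 CPM in W131AOTII and 116 to 144 CPM in OTII libraries. Il2ra and Tnfrsf18 of the regulatory T cell list and Cd44 of the effector or memory list are also on the list of NF-kB targets. The marker and target results are therefore not independent. Of 10 B cell markers, 9 fell in Cbl-b-/-W131AOTII (1640 to 1795 CPM in sum) against W131AOTII libraries (2287, 5131 and 2402 CPM), and of 8 tested myeloid or dendritic markers (of 12), led by Cst3 and Lyz2, 3 fell (66.9 to 75.7 against 76.1 to 188 CPM in sum). These falls stand beside 6.08% of all genes called lower. Without the libraries that stood apart, Bcl3 gave 1.12 in W131AOTII minus OTII (edgeR adjusted p = 0.00452) and -1.37 in Cbl-b-/-W131AOTII minus W131AOTII cells (0.0011), and Rela gave -0.77 in Cbl-b-/-W131AOTII minus W131AOTII cells (0.0279). Leaving out those libraries leaves the marker differences between the groups in place, and the part of other cells in the members' levels was not tested, and in bulk RNA fewer cells of a type cannot be told apart from less RNA per cell.

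**Figure D5:**
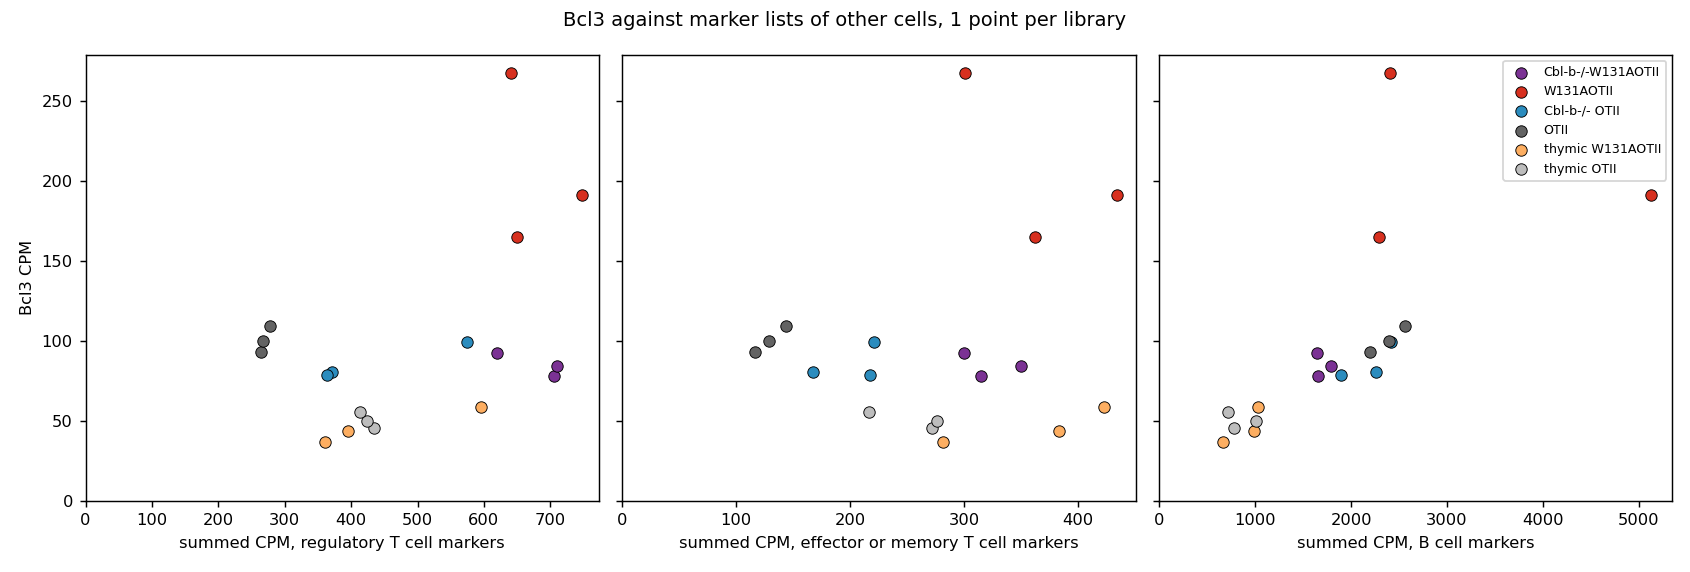
Bcl3 CPM (vertical axis) against the summed CPM of regulatory T cell, effector or memory T cell and B cell markers (horizontal axes), 1 point per library, coloured by group. The 3 Cbl-b-/-W131AOTII libraries sit at 77.8 to 92.5 CPM of Bcl3 and the 3 W131AOTII libraries at 165 to 268 CPM. Their regulatory T cell sums were 620.4 to 711 and 641 to 748 CPM, and their B cell sums 1640 to 1795 and 2287 to 5131 CPM. The part of these cells in the Bcl3 level was not tested.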

How the data were processed

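Per the labels' protocols, total RNA was made into libraries with the Nugen/Nextera XT kit and read single-end over 50 bases. The values are raw counts per Ensembl gene, deposited by the authors as 1 table with a column per library. STAR 2.7.2, GRCm38 and DESeq2 are named in the submitters' processing notes; no source used here gives the counting step, annotation or strand setting. Identifiers were matched to GENCODE release M21 symbols, all 55536 of them.

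The 18 libraries entered 1 edgeR 4.0.16 quasi-likelihood fit (R 4.3.3; a mean for each of the 6 groups, leaving 12 degrees of freedom), with TMM factors and filterByExpr, which kept 15204 genes. There were 8 comparisons of 2 groups and 2 differences between effects, Benjamini-Hochberg adjusted over all genes at a threshold of 0.05. RPKM used the summed exon length. Alternatives, whose effect closes the document, were RLE factors, library size alone, no filter, DESeq2 1.42.0, limma 3.58.1 voom with quality weights, the replicate number as a block, offsets for GC content and length, only the groups compared, and leaving out libraries. The fit was tested on simulated counts.

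The members and lists were chosen with earlier results of these data known. All members were named in every comparison; of each pathway list at most 4 genes past the threshold with the smallest adjusted p, of each marker list the 2 most abundant, and for each called member the 2 protein-coding genes nearest in centred log2 CPM (prior count 2). Icam1 counts under the interaction. An upstream gene is not reported here. Promoters came from RefSeq and protein sequences were not used here.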

Additional observations from a re-analysis of the deposited data

Results flagged for a closer look

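The W131A effect on Bcl3 differed between periphery and thymus. It was larger in the periphery by a log2 difference of 1.16 (SE 0.25, edgeR adjusted p = 0.0478), where W131AOTII libraries had 165 to 268 CPM against 93.4 to 109 CPM in OTII libraries, while thymic W131AOTII libraries had 37.0 to 58.5 CPM against 45.8 to 55.4 CPM in thymic OTII libraries. Bcl3 was higher in 3 of 3 peripheral W131AOTII libraries than in every peripheral OTII library. Of 22 alternative fits, 9 kept the difference past the threshold, and its size ran from 0.92 to 1.36. Sort and tissue differ between the 2 places and cannot be told apart from the place itself.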

How the results depend on the processing

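No called member changed direction in any alternative: of 230 values of called members, 192 kept their call and 38 missed the threshold, 57 values of members not called at first passed it, and 117 values of such members changed sign, none larger than 0.16 in size at first. Bcl3 passed in all 16 alternatives of W131AOTII minus OTII, Cbl-b-/-W131AOTII minus W131AOTII and both comparisons of periphery with thymus. The number of members called was 2 in W131AOTII minus OTII and 1 in the fit blocked on the replicate number, in which the Nfkb2 call was lost (adjusted p = 0.0628), and 1 without the 3 libraries that stood apart; leaving out 1 library gave 1 to 2, while limma voom, GC and length offsets, and only the groups compared gave 3 with Relb. Leaving out 1 library gave 2 to 4 in Cbl-b-/-W131AOTII minus W131AOTII (4 in all libraries), and no filter, limma voom and only the groups compared gave 6, of which 2, 1 and 1 were higher. In Cbl-b-/- OTII minus OTII (1) limma voom gave 2, leaving out the libraries that stood apart 0, and leaving out 1 library 0 to 1. In Cbl-b-/-W131AOTII minus Cbl-b-/- OTII (0) no filter gave 2, and DESeq2, limma voom and only the groups compared gave 1 each. In Cbl-b-/-W131AOTII minus OTII (1) no filter gave 2, limma voom and only the groups compared 4 each, and leaving out 1 library 0 to 1. In thymic W131AOTII minus thymic OTII (0) no filter gave 1, limma voom 2, and leaving out 1 library 0 to 1. In OTII minus thymic OTII (1) DESeq2 and only the groups compared gave 2, limma voom, GC and length offsets, and block with offsets 3 each, and leaving out 1 library 1 to 2. In W131AOTII minus thymic W131AOTII (4) limma voom gave 7. In the interaction (0) no filter, DESeq2, block with offsets, and only the groups compared gave 1 each, GC and length offsets 2, limma voom 3, and leaving out 1 library 0 to 1. In the W131A effect in periphery minus thymus (1) limma voom gave 5, the block, leaving out the libraries that stood apart and only the groups compared 0 each, and leaving out 1 library 0 to 1. Counts by limma voom stand beside 3.66% to 36% of all genes called, those of only the groups compared beside 0.327% to 28.0%, and those by DESeq2 beside 1.38% to 21.3%, depending on the comparison. Those with no filter stand beside 1.22% to 11.2% of all genes, and those with GC and length offsets beside 0.704% to 25.5%. The causes were not tested. Library size alone moved the median of all genes to 0.18 in Cbl-b-/-W131AOTII minus W131AOTII, 0.16 in Cbl-b-/-W131AOTII minus OTII and 0.12 in the interaction. Replicate numbers did not pair the libraries: of 45 correlations between same-numbered libraries, 6 were over 0.1, at a median of -0.003.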
